A study of Mus musculus with 6 samples.

Results

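The liver endothelium of 2 mouse strains was followed through 36 genes, 12 of them typical of liver sinusoidal endothelial cells and 24 of endothelium in general, out of 18194 genes measured on expression arrays. The members were taken by symbol from probe sets that the platform annotation pairs with a single gene, and all 36 had at least 1 such probe set. Where a gene had several, the probe set with the highest mean over the 6 arrays represented it and the others were compared with it. The animals were females aged 8 weeks and fed chow, 3 of the inbred strain C57BL/6J and 3 of B6.C3H-6T, a congenic strain that carries C3H DNA on chromosome 6 in a C57BL/6J background and that the series title describes as low in serum IGF-1. Each array held liver RNA from 1 mouse, with no pooling. No transgene, drug or deletion was named for either group, and the sources used here do not state the limits of the C3H segment. All values are log2 expression values, so a difference of 1 is a doubling of signal.

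Liver sinusoids are lined by a perforated endothelium without a continuous basement membrane. Its cells clear waste molecules and immune complexes from blood through scavenger and Fc receptors, and they send signals such as Bmp2 and Wnt2 to hepatocytes. Endothelium of larger vessels shares the junction proteins, the VEGF and angiopoietin receptors and the ETS and SOX transcription factors, and it is richer in proteins such as von Willebrand factor. In whole liver, endothelial cells are a minority beside hepatocytes, and in such bulk samples fewer endothelial cells and less RNA per cell cannot be told apart.

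The endothelial genes were close to equal in the strains. None of the 36 passed the test over all genes (limma with Benjamini-Hochberg adjustment, adjusted p from 0.254 for Tie1 to 0.994 for Egfl7), while 13 of 18194 genes passed (0.0715%). Lower values in B6.C3H-6T were found for 23 members and higher values for 13, so that 63.9% of the members were lower against 43.9% of all genes. The median difference was -0.03 against 0.02 over all genes. An unadjusted p under 0.05 was reached by 5 members, 4 lower (Tie1, Fcgr2b, Maf and Cd34) and 1 higher (Vwf). That is 13.9% of the members, near the 12.1% of all genes, of which 5.8% were lower and 6.34% higher. The strains did not overlap at 5 members, Tie1, Fcgr2b, Cd34 and Ramp2 on the lower side and Vwf on the higher, which is also 13.9% and stands against 17.8% of all genes (7.49% lower and 10.3% higher). The 95% interval of the difference lay within 0.51 of 0 for all 36 members, and so inside a 1.5-fold change, and it lay within 0.3 for 30 of them. Leaving out C57BL/6J replicate 2 left 1 of the 5 (2.78% of the members, against 12% of all genes). Leaving out B6.C3H-6T replicate 2 left 2 (5.56% against 7.27%) and leaving out C57BL/6J replicate 3 left 3 (8.33% against 8.88%). Tie1 was among them in each case.

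**Figure D1:**
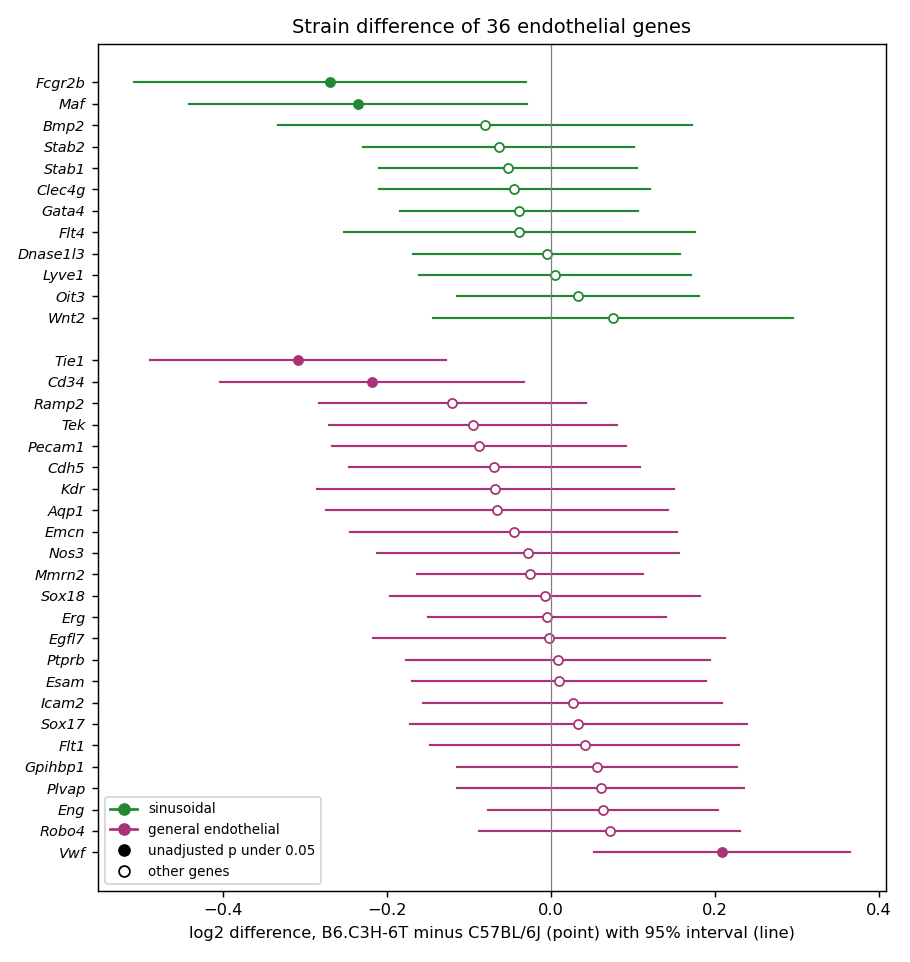
Log2 difference between the strains (B6.C3H-6T minus C57BL/6J, x axis) for the 36 endothelial genes, with points for the fitted difference, lines for its 95% interval and filled points for an unadjusted p under 0.05. The differences run from -0.31 for Tie1 to 0.21 for Vwf, and the intervals of the 31 genes with open points cross 0.

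Tie1 had the largest difference of the members. It encodes an endothelial receptor tyrosine kinase that works together with Tek, the angiopoietin receptor. Its values were 7.17, 7.25 and 7.22 in C57BL/6J mice and 7.01, 6.75 and 6.96 in B6.C3H-6T mice. Every B6.C3H-6T mouse lay below every C57BL/6J mouse, and the difference was -0.31 ± 0.08 (SE, 3 mice per strain, 80.7% of the C57BL/6J signal on the linear scale; limma adjusted p = 0.254). It kept an unadjusted p under 0.05 in all 11 alternative analyses, with -0.36 to -0.23 when 1 array was left out. Tek itself, with values of 7.77, 7.64 and 7.62 against 7.67, 7.46 and 7.61, overlapped between the strains and differed by -0.10 ± 0.08. Tie1 and Tek each had a single probe set.

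To show the DNA ahead of members with a small p, promoter sequence was taken from a RefSeq table of assembly GRCm38.p6. It holds 21 windows for 17 of the 36 members, and none for Vwf and Maf, which also had an unadjusted p under 0.05. The 250 bases before each start were searched on both strands for CAGGAAG and CCGGAAG, forms of the site bound by ETS factors such as Erg. A match was found in 7 of 21 member windows (33.3%) and in 17.0% of all 32851 windows of the same length. AGATAA, a form of the GATA site, was found in 1 of 21 member windows (4.76%) and in 9.99% of all. The reference is C57BL/6J sequence, and a match describes letters in this window only. The windows of 3 members with lower values in B6.C3H-6T follow, with that of Egfl7, whose brightest probe set was near 0. They lie at chr4:118489850-118490099 on the minus strand (Tie1), chr1:194938571-194938820 on the plus strand (Cd34), chr1:170976072-170976321 on the minus strand (Fcgr2b) and chr2:26580833-26581082 on the plus strand (Egfl7). Each is upstream of the gene's first base and outside the transcript that starts there. Capitals mark the ETS form on either strand, which is present once in Cd34 and at 2 places in this window of Egfl7 and has no match in Tie1 or Fcgr2b. Egfl7 has 2 further windows at later starts in the table, of which 1 holds a single match and the other none.
Tie1: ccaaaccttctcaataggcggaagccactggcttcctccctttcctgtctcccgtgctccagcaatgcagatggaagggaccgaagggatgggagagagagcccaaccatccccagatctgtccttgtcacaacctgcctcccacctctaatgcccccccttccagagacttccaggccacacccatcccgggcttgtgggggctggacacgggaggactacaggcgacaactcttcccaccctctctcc
Cd34: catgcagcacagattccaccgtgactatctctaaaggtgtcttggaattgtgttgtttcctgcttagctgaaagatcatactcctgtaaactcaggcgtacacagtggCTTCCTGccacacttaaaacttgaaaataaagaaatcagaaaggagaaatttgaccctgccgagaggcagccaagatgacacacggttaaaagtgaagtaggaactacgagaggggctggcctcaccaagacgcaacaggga
Fcgr2b: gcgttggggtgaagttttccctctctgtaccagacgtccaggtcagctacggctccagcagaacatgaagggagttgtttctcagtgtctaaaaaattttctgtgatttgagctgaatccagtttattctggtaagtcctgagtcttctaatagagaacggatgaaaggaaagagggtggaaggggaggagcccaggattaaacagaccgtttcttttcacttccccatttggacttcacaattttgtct
Egfl7: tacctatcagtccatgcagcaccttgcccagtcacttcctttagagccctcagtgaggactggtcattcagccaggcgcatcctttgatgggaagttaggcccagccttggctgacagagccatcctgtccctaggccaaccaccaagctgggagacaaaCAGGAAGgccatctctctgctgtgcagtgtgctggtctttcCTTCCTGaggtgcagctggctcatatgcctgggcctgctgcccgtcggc

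Among the 5 scavenger and Fc receptors of the sinusoidal list, 4 were near 0. Stab2, a receptor that takes up hyaluronan, measured 9.40, 9.51 and 9.44 in C57BL/6J mice and 9.46, 9.27 and 9.43 in B6.C3H-6T mice. Its relative Stab1 measured 8.51, 8.51 and 8.47 against 8.51, 8.33 and 8.48. In both genes B6.C3H-6T replicate 2 was the lowest of the 6 mice and the other B6.C3H-6T mice lay among the controls, with differences of -0.06 ± 0.07 and -0.05 ± 0.07. The C-type lectin gene Clec4g measured 10.36, 10.44 and 10.33 against 10.45, 10.25 and 10.29, and differed by -0.04 ± 0.07. Lyve1, a hyaluronan receptor shared with lymphatic endothelium, differed by 0.00 ± 0.07, with all 6 values between 7.43 and 7.61. Fcgr2b is the inhibitory Fc receptor that clears immune complexes in the sinusoid. It measured 10.14, 10.27 and 10.20 in C57BL/6J mice and 10.13, 9.70 and 9.98 in B6.C3H-6T mice, without overlap but with B6.C3H-6T replicate 1 only just below the lowest control. The difference was -0.27 ± 0.11 (limma adjusted p = 0.377), and it was -0.15 without B6.C3H-6T replicate 2. Another scavenger receptor gene, Mrc1, was placed in the separate list of signalling genes given below. It differed by -0.19 ± 0.08, without overlap between the strains (limma adjusted p = 0.392).

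The other sinusoidal genes include secreted proteins, a growth factor receptor and transcription factors. Oit3, a secreted protein of sinusoidal endothelium, differed by 0.03 ± 0.07, and Dnase1l3, which degrades DNA in blood, by -0.01 ± 0.07. Flt4, the receptor for VEGF-C, measured 8.97, 8.92 and 8.92 against 9.09, 8.70 and 8.90, a wider spread in B6.C3H-6T around a difference of -0.04 ± 0.09. Of the signals to hepatocytes, Bmp2, which induces hepcidin, differed by -0.08 ± 0.11 and Wnt2, a ligand of the pericentral programme, by 0.08 ± 0.10. Wnt2 is on chromosome 6. Gata4, the transcription factor that sets sinusoidal identity, differed by -0.04 ± 0.06, with an interval from -0.18 to 0.11. Maf, a transcription factor of sinusoidal endothelium and of macrophages, measured 9.95, 10.11 and 10.10 in C57BL/6J mice and 9.79, 9.68 and 9.99 in B6.C3H-6T mice. The strains overlapped, since B6.C3H-6T replicate 3 lay above C57BL/6J replicate 1, and the difference was -0.24 ± 0.09 (limma adjusted p = 0.373; -0.32 to -0.16 without 1 array).

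**Figure D2:**
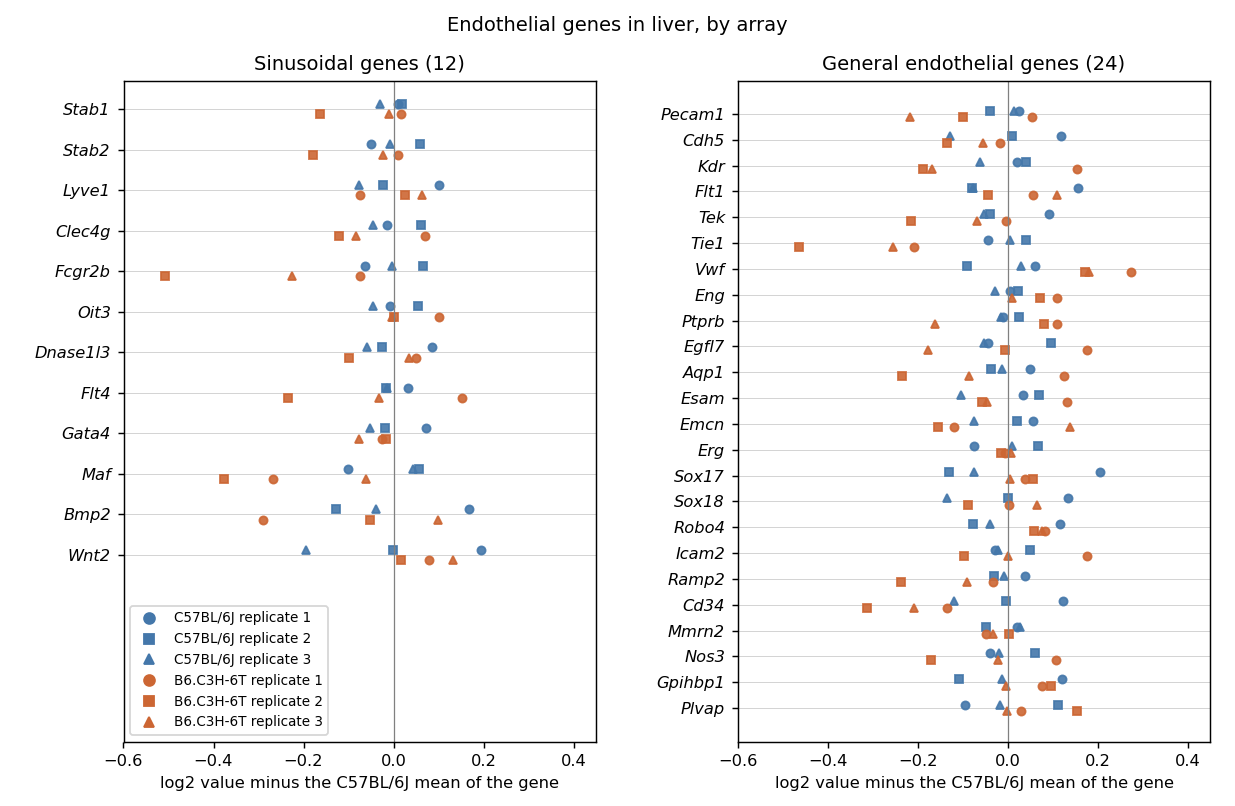
Value of each array for the 36 genes as the log2 value minus the mean of the 3 C57BL/6J arrays for that gene (x axis), with sinusoidal genes on the left, general endothelial genes on the right, blue for C57BL/6J, orange for B6.C3H-6T and a marker shape for each replicate. Most genes mix the colours around 0, while Tie1, Fcgr2b, Cd34 and Ramp2 have all orange points on the low side and Vwf has them on the high side.

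The receptors of general endothelium other than Tie1 were near 0. Kdr, the main signalling receptor for VEGF-A, measured 9.47, 9.49 and 9.39 in C57BL/6J mice and 9.61, 9.27 and 9.29 in B6.C3H-6T mice. Its highest value and both of its lowest were B6.C3H-6T mice, and the difference was -0.07 ± 0.10. Flt1, which also binds VEGF-A, differed by 0.04 ± 0.08. Eng, a coreceptor for BMP ligands, measured 9.73, 9.75 and 9.70 against 9.84, 9.80 and 9.74 and differed by 0.06 ± 0.06. Ptprb, the phosphatase that restrains Tek, differed by 0.01 ± 0.08, and Robo4, an endothelial guidance receptor, by 0.07 ± 0.07. Ramp2, the partner of the adrenomedullin receptor, measured 9.09, 9.02 and 9.05 against 9.02, 8.82 and 8.96. The strains did not overlap there, by a narrow margin, and the difference was -0.12 ± 0.07 (limma adjusted p = 0.536).

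Junction and surface proteins were also close in the strains, with Cd34 as the exception by size. Pecam1, an adhesion molecule of all endothelium, measured 7.30, 7.23 and 7.29 in C57BL/6J mice and 7.33, 7.17 and 7.06 in B6.C3H-6T mice, a difference of -0.09 ± 0.08. Cdh5, the cadherin of endothelial junctions, measured 7.76, 7.65 and 7.52 against 7.63, 7.51 and 7.59 and differed by -0.07 ± 0.08. Both genes overlapped between the strains. The junction gene Esam differed by 0.01 ± 0.08, the adhesion gene Icam2 by 0.03 ± 0.08 and the sialomucin gene Emcn by -0.05 ± 0.09. Cd34, a surface sialomucin of vessels outside the sinusoid and of blood progenitors, measured 5.12, 4.99 and 4.88 in C57BL/6J mice and 4.86, 4.68 and 4.79 in B6.C3H-6T mice. All B6.C3H-6T mice were below the controls, although the nearest values almost touched, and the difference was -0.22 ± 0.08 (limma adjusted p = 0.360; -0.28 to -0.16 without 1 array). Its single probe set was dim, below the median gene, as were those of Vwf, Emcn, Erg and Sox17, and the method used gave no call of presence or absence.

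The transcription factors of general endothelium were close to 0. Erg, the ETS factor that maintains endothelial identity, measured 6.61, 6.76 and 6.70 in C57BL/6J mice and 6.68, 6.67 and 6.70 in B6.C3H-6T mice. The B6.C3H-6T mice lay inside the range of the controls, and the difference was -0.01 ± 0.06. Sox18 differed by -0.01 ± 0.08 and Sox17, a factor of arterial endothelium, by 0.03 ± 0.09.

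Of the remaining vessel genes only Vwf had an unadjusted p under 0.05. Vwf encodes von Willebrand factor, the carrier of platelets to injured vessel wall, and lies on chromosome 6. Its values were 5.85, 5.70 and 5.82 in C57BL/6J mice and 6.06, 5.96 and 5.97 in B6.C3H-6T mice. All B6.C3H-6T mice were higher, by 0.21 ± 0.07 (116% of the C57BL/6J signal; limma adjusted p = 0.323), with 0.16 to 0.24 when 1 array was left out. It has 1 probe set, and whether its probes meet a C3H sequence difference was not tested. Aqp1, the third member on chromosome 6, is a water channel that bile duct cells and red cells also make. It measured 10.58, 10.49 and 10.52 against 10.65, 10.29 and 10.44, with the highest and the lowest value both in B6.C3H-6T, and differed by -0.07 ± 0.09. Nos3, the endothelial nitric oxide synthase gene, differed by -0.03 ± 0.08. Plvap, of the diaphragms of capillary pores, and Gpihbp1, the capillary anchor of lipoprotein lipase, each differed by 0.06 ± 0.08. The secreted angiogenic factor gene Egfl7 differed by -0.00 ± 0.09 and the matrix gene Mmrn2 by -0.03 ± 0.06.

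For 15 members, 29 other probe sets could be compared, and 17 of them had the sign of the one that represented the gene. An unadjusted p under 0.05 was reached by 3 of the 29. For Fcgr2b, the other 4 differed by -0.09, 0.02, -0.14 and -0.09, so that none reached the -0.27 of the brightest. For Maf, 4 of the other 5 were lower, from -0.27 to -0.08, and 1 was higher by 0.25 ± 0.07. That higher one and the -0.27 ± 0.10 one were among the 3. The last of the 3 was a second probe set of Cdh5, higher by 0.19 ± 0.08 while the brighter one differed by -0.07. With the mean of all probe sets the differences became -0.12 for Fcgr2b and -0.10 for Maf, and neither kept an unadjusted p under 0.05. For Egfl7 the other 3 were higher, by 0.08, 0.15 and 0.19, none at that threshold, and the mean of its probe sets differed by 0.10. Both other probe sets of Ptprb, the second ones of Eng, Gata4 and Flt4, and the representatives of these genes were all within 0.07 of 0. Single other probe sets lay farther from 0 than the representative for Dnase1l3 (0.16), Flt1 (0.12), Erg (-0.12), Sox17 (-0.11) and Mmrn2 (-0.13). None of these had an unadjusted p under 0.05.

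**Figure D3:**
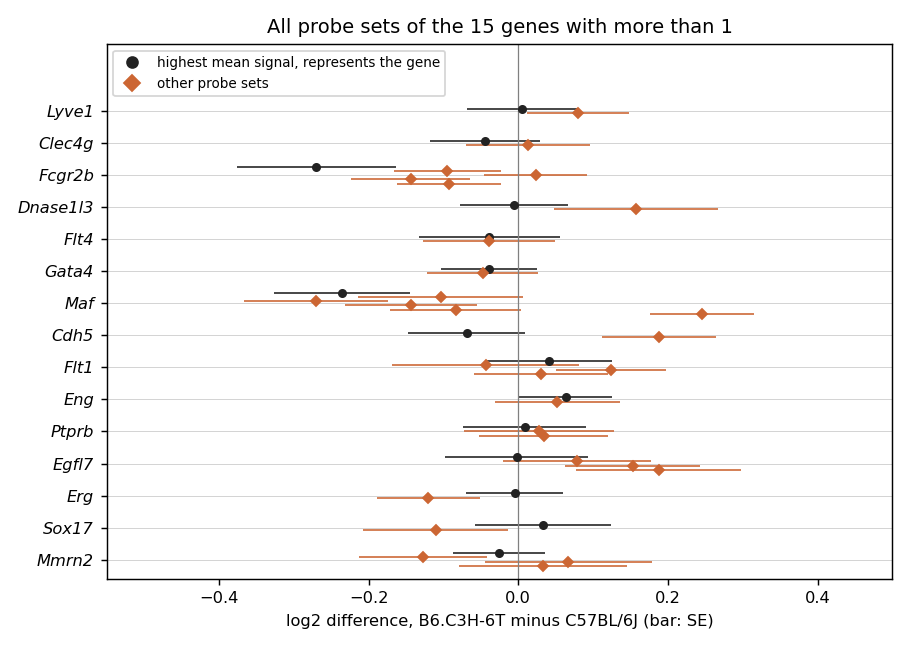
Log2 difference between the strains (B6.C3H-6T minus C57BL/6J, x axis, bars are SE) for every probe set of the 15 genes that have more than 1, with black circles for the probe set that represents the gene and orange diamonds for the others. The probe sets of Maf span -0.27 to 0.25, and those of Fcgr2b other than the black circle lie between -0.14 and 0.02.

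Sinusoidal genes were lower in 9 of 12 cases, with a median difference of -0.04, and general endothelial genes in 14 of 24, with a median of -0.01. These are 75.0% and 58.3%, against 43.9% lower and a median of 0.02 over all genes. The mean of the 12 sinusoidal genes was 8.89, 8.87 and 8.82 in C57BL/6J mice and 8.84, 8.72 and 8.84 in B6.C3H-6T mice. That of the 24 general genes was 7.88, 7.83 and 7.79 against 7.88, 7.76 and 7.79. In both groups of genes B6.C3H-6T replicate 2 was the lowest array and the other B6.C3H-6T arrays overlapped the controls. The sinusoidal mean minus the general mean was 1.03 ± 0.01 (SD) for the C57BL/6J mice and 0.99 ± 0.05 for the B6.C3H-6T mice. The strain change in that contrast, -0.04, was thus smaller than the spread among the B6.C3H-6T mice, whose values were 0.96, 0.96 and 1.05.

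B6.C3H-6T replicate 2 gave the lowest of the 6 values for 17 of the 36 members (47.2%), against 18.1% of all genes. C57BL/6J replicate 1 gave the highest for 14 members (38.9%, against 18.3% of all genes) and B6.C3H-6T replicate 1 for 13 (36.1%, against 21.0%). Without B6.C3H-6T replicate 2 the median difference of the sinusoidal genes was -0.01 and that of the general genes 0.01. Without C57BL/6J replicate 1 these medians were -0.01 and -0.01, and without B6.C3H-6T replicate 1 they were -0.07 and -0.04. The spread between mice of a strain had a median SD of 0.10 over the members and 0.09 over all genes. It ran from 0.04 for the tightest member to 0.17 for Bmp2. Array medians lay between 6.07 and 6.11, and correlations between arrays over all probe sets between 0.994 and 0.997. On the first principal component, which took 37.3% of the variance, B6.C3H-6T replicate 2 also lay farthest out.

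Kupffer cells are the macrophages that share the sinusoid, and some of these transcripts, with the endothelium. All 12 Kupffer cell markers were lower in B6.C3H-6T, with a median of -0.27, and 10 of 12 (83.3%) had an unadjusted p under 0.05, against 12.1% of all genes, although none passed over all genes. Their mean was 9.45, 9.71 and 9.55 in C57BL/6J mice and 9.34, 9.12 and 9.34 in B6.C3H-6T mice, without overlap. Timd4, a receptor for dying cells, differed by -0.47 ± 0.11 and the complement gene C1qb by -0.27 ± 0.07. The count of 10 became 4 when C57BL/6J replicate 2 was left out and 5 when B6.C3H-6T replicate 2 was, with all 12 lower both times. The share of all genes at that threshold was 12% in the first case and 7.27% in the second. The list was chosen with earlier results of these data known, so its share of 83.3% is a description only. Fcgr2b and Maf are also transcribed in Kupffer cells, and the part of those cells in their differences was not tested. Fcgr2b is a B cell transcript as well. The lymphocyte list had 6 of 7 markers lower, 2 of them at an unadjusted p under 0.05, and a median of -0.13, and its part was not tested either. Its mean ran from 6.47 to 6.57 in C57BL/6J and from 6.25 to 6.46 in B6.C3H-6T, without overlap. Ptprc, the surface phosphatase of all leukocytes, differed by -0.47 ± 0.11 and the B cell receptor gene Cd79b by -0.25 ± 0.10.

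The markers of the other cell types went in both directions, with 8 of 10 hepatocyte, 6 of 8 mural cell and all 5 cholangiocyte markers higher. The stellate cell and fibroblast list had a median of 0.01, a mean of 8.28 to 8.45 in C57BL/6J and 8.30 to 8.39 in B6.C3H-6T, and 1 of 13 markers at an unadjusted p under 0.05, the matrix gene Lum (-0.26 ± 0.07). Lrat, the retinol esterifying enzyme of stellate cells, differed by 0.18 ± 0.08. Mural cell markers had a median of 0.05 with none of 8 at that threshold, and means of 6.90 to 6.99 and 6.87 to 7.07. Cnn1 and Rgs5, of muscle cells and pericytes, differed by 0.16 ± 0.07 and -0.21 ± 0.10. Hepatocyte markers had a median of 0.04 and means of 13.60 to 13.69 against 13.71 to 13.75, without overlap. The enzymes Tat (0.42 ± 0.09) and Cps1 (0.26 ± 0.06) were the 2 of 10 with an unadjusted p under 0.05. The 5 cholangiocyte markers were all higher, with a median of 0.06, none at that threshold and means of 6.33 to 6.36 against 6.36 to 6.50. Krt19 and Sox9 had the smallest p there, with 0.17 ± 0.08 and 0.14 ± 0.08. Of 3 red cell genes 1 was higher at an unadjusted p under 0.05, the anion exchanger gene Slc4a1 (0.22 ± 0.07). The globin gene Hba-a1 differed by -0.08 ± 0.08, but its probe set was dim, with a mean of 4.30, and red cell content cannot be read from it. The red cell means, which include it, were 6.04 to 6.09 against 6.04 to 6.11. No list had a gene at 0, since the scale of these arrays starts near 3.

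**Figure D4:**
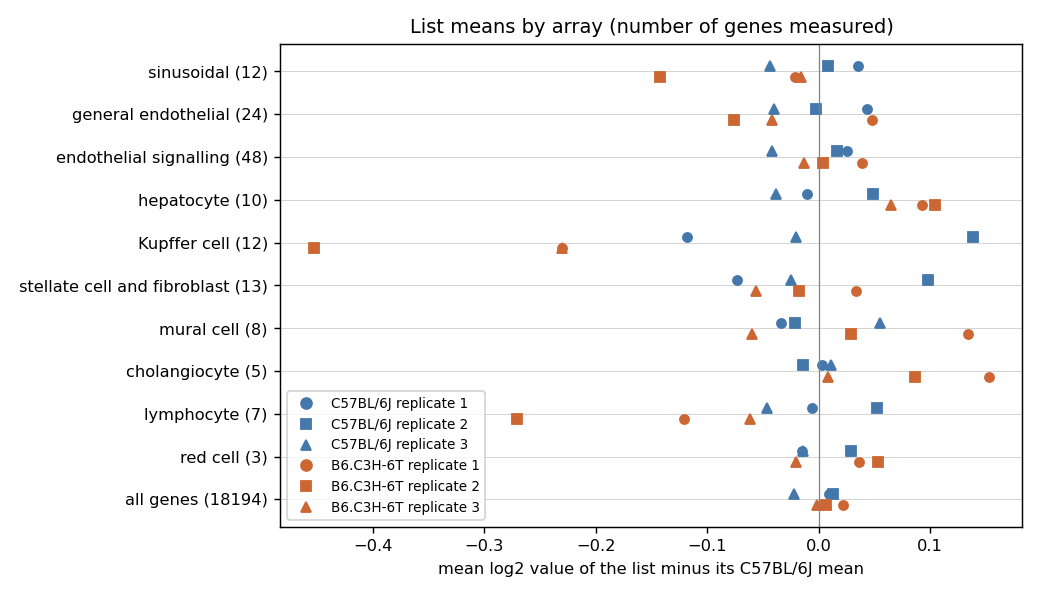
Mean log2 value of each gene list minus its mean over the 3 C57BL/6J arrays (x axis), by array, with blue for C57BL/6J, orange for B6.C3H-6T, a marker shape for each replicate and the number of measured genes in brackets. The Kupffer cell and lymphocyte means of B6.C3H-6T lie below all C57BL/6J means, and the hepatocyte means lie above them. The sinusoidal and general endothelial means overlap apart from B6.C3H-6T replicate 2.

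The pathways that act on endothelium were followed through a separate list. Of 48 ligands, receptors, Notch and BMP components and flow responsive factors, all measured, 14 (29.2%) had an unadjusted p under 0.05, 7 lower and 7 higher, against 12.1% of all genes, and none passed over all genes. The median of the 48 was 0.03, and the differences ran from -0.44 for Nrp1 to 0.39 for Smad7, both with overlap between the strains. The count was 9 without B6.C3H-6T replicate 2, with 5 lower and 4 higher, and the share of all genes was then 7.27%. With dim genes left out, 21 of the 48 remained, 6 lower and 3 higher at an unadjusted p under 0.05. The share of all genes kept was then 14.6%. Notch4 and Thbd, named below, were among the dim genes. This list too was chosen with earlier results of these data known, so its share of 29.2% is a description only. Many of its genes are transcribed in hepatocytes, macrophages or stellate cells too, and the cells behind these differences were not tested.

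Among the Notch genes, Notch1, a receptor of arterial and sinusoidal endothelium, measured 7.94, 8.25 and 8.07 in C57BL/6J mice and 7.85, 7.54 and 7.58 in B6.C3H-6T mice. The strains did not overlap, and the difference was -0.43 ± 0.10 (limma adjusted p = 0.235). Notch4, the receptor most restricted to endothelium, went the other way, with 5.47, 5.41 and 5.42 against 5.75, 5.59 and 5.64, a difference of 0.23 ± 0.07. Its probe set was dim. The list's other Notch components were also higher, Jag1 by 0.21 ± 0.10, Jag2 by 0.20 ± 0.08 and Dll4 by 0.16 ± 0.09. Hey1 and Heyl differed by 0.13 ± 0.07 and 0.08 ± 0.06. These genes were dim and overlapped between the strains, and of them only Jag2 met the unadjusted threshold of 0.05. Other probe sets of the signalling genes, which Notch1, Notch4, Jag1, Jag2, Dll4, Heyl, Nrp1, Nrp2, Ets2 and Smad7 have, were not compared singly. Nrp2, a coreceptor for VEGF-C, measured 7.80, 7.60 and 7.60 against 7.07, 7.28 and 7.52 and differed by -0.38 ± 0.11. The ETS factor gene Ets2 differed by -0.26 ± 0.08. None of the B6.C3H-6T values of Notch1, Notch4, Nrp2 and Ets2 crossed the range of the controls.

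Of the genes downstream of BMP receptors, the inhibitor gene Smad6 measured 7.56, 7.27 and 7.43 in C57BL/6J mice and 7.01, 7.23 and 6.92 in B6.C3H-6T mice, a difference of -0.37 ± 0.10, without overlap. The BMP target gene Id3 was higher in all 3 B6.C3H-6T mice, with means of 9.20 ± 0.10 (SD) against 8.94 ± 0.06, and differed by 0.26 ± 0.07. The other genes of this kind went no single way. Smad7, an inhibitor like Smad6, differed by 0.39 ± 0.13 in the opposite direction, with an unadjusted p under 0.05 but with overlap between the strains, and Id1, a target like Id3, differed by 0.13 ± 0.12. Klf2, the transcription factor that blood flow induces in endothelium, measured 7.96, 7.83 and 7.67 against 8.14, 8.28 and 7.99 and differed by 0.32 ± 0.10. Thbd, the anticoagulant receptor thrombomodulin and a known target of Klf2, measured 5.62, 5.49 and 5.34 against 5.94, 5.64 and 6.00 and differed by 0.38 ± 0.11. Both were higher in every B6.C3H-6T mouse than in any control, with adjusted p of 0.298 and 0.280 in limma. Nos3, another target of Klf2, overlapped between the strains, with means of 7.02 ± 0.05 (SD) for the controls and 6.99 ± 0.14 for B6.C3H-6T.

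**Figure D5:**
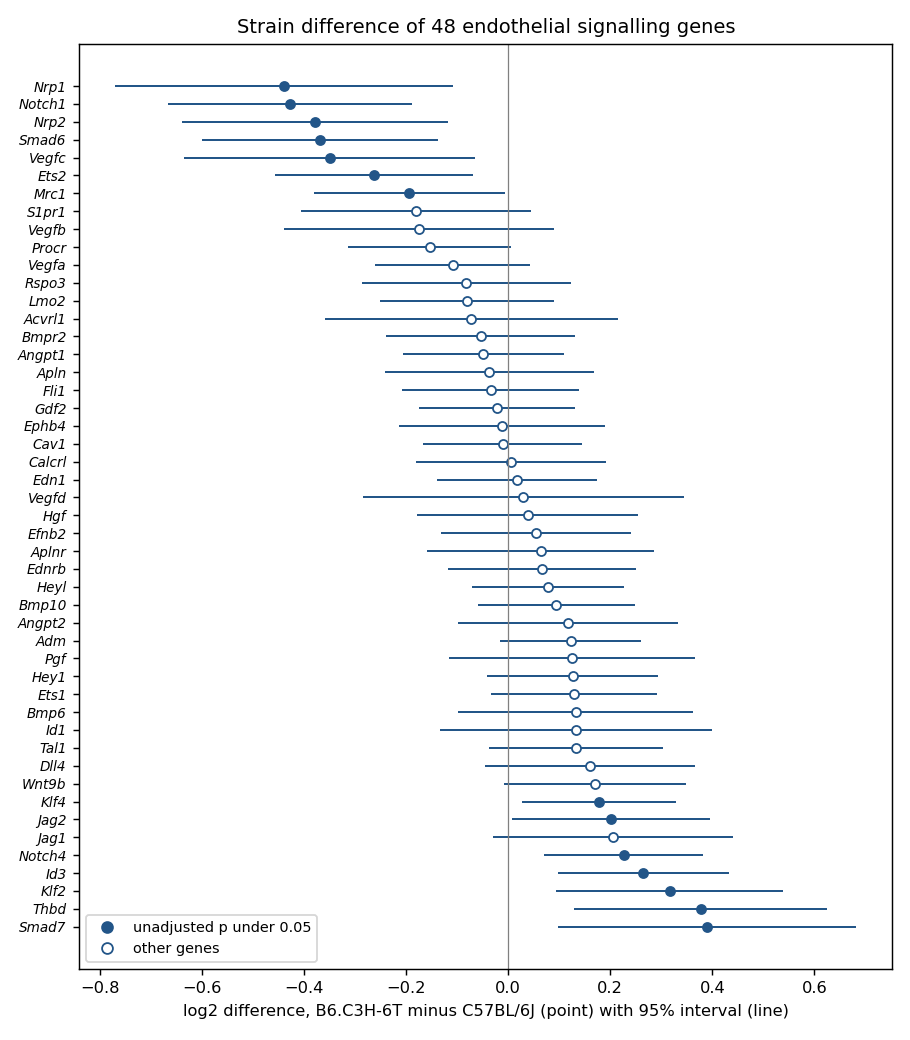
Log2 difference between the strains (B6.C3H-6T minus C57BL/6J, x axis) for 48 endothelial signalling genes, with points for the fitted difference, lines for its 95% interval and filled points for an unadjusted p under 0.05. Filled points lie at both ends, 7 on the low side and 7 on the high side.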

How the data were processed

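Liver RNA of 6 mice was measured on Affymetrix arrays with oligo(dT)-primed, T7-amplified and biotin-labelled targets, per the labels' protocols. The deposited log2 values, 1 per probe set and array, were made by the authors with RMA from affy, per the submitters' processing notes, after image analysis with GCOS 1.2, per the labels. The sources used here state no other version, annotation, batch or scan date. Of 45101 probe sets, 64 controls were left out, and 34945 of the other 45037 were paired with 1 gene, 932 with several, and 9160 are unnamed here. Symbols were updated by gene identifier to a RefSeq table of GRCm38.p6.

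All probe sets were fitted with lmFit and eBayes of limma 3.58.1 (R 4.3.3), with strain as the only term and no filter, with Benjamini-Hochberg adjustment over 18194 genes and a threshold of 0.05. Each difference is the B6.C3H-6T mean minus the C57BL/6J mean. The fit was also run on simulated data with independent noise for each probe set. Shifts shared by many genes of an array were not simulated. The number of arrays, 3 per strain, limits the precision. Replicate numbers follow accession order and only name a mouse.

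The members and lists were chosen with earlier results of these data known. All members are named, with the 8 signalling genes and the 2 genes of each marker list that have the smallest p, and single others only where a count or pathway needs them. List genes that no probe set names alone were not analysed here. Alternatives were array centring, a filter on dim genes, other choices of probe set, a trended robust variance and leaving out each array.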

Additional observations from a re-analysis of the deposited data

How the results depend on the processing

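No member passed over all genes in any of the 11 alternatives. Of 391 member differences recomputed, 354 kept their sign and 37 changed it, all of them uncalled. The number of members with an unadjusted p under 0.05, 5, became 3 with dim genes left out (31 members remained in the test) and 3 with the mean of all probe sets. It ran from 1 to 5 when 1 array was left out. With dim genes left out the share was 9.68% of members against 14.6% of all genes kept. With the mean of all probe sets it was 8.33% against 12%. When 1 array was left out it ran from 2.78% to 13.9% of members and from 7.27% to 13.2% of all genes. The number of genes called between the strains, 13, ran from 6 to 15 when 1 array was left out. The median difference ran from -0.07 to -0.01 for sinusoidal genes and from -0.04 to 0.01 for general endothelial genes. Centring the arrays moved these medians to -0.07 and -0.03. No paired analysis was possible because no replicate number in the labels is shared between the strains.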
